A study of Mus musculus with 7 samples.

Results

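Lilr4b and Lilrb4a, a pair of leukocyte immunoglobulin-like receptor (LILR) genes that lie side by side on mouse chromosome 10, were followed in splenic CD4+CD25+ cells of aged and young mice. The members were chosen by gene symbol from values of these same libraries, because both stood far higher in aged than in young cells. Their levels by age are therefore given as a description, with no test. They are 2 of the 25469 genes in the deposited table of the series and of the 47729 genes in the count files, and their counts were also summed.

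RNA-sequencing covered 3 libraries from aged mice, 18 months old, and 4 libraries from young mice, 8 weeks old by the sample labels (the study's methods give a slightly older age for young mice). All mice were wild type, and by the study's methods male C57BL/6, and the labels call the libraries of an age biological replicates. The cells are CD4+CD25+ splenocytes, a fraction rich in regulatory T cells (Tregs), taken with magnetic beads and not by a gate on Foxp3. The cDNA was amplified from full-length transcripts with SMART-Seq v4, which adds no molecular identifiers. Counts on genes were 10734234 to 13649310 per library.

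LILR receptors carry immunoglobulin domains outside the cell. The inhibitory members hold immunoreceptor tyrosine-based inhibitory motifs (ITIMs) in their cytoplasmic tail, which recruit phosphatases and damp signals from activating receptors. Lilrb4a encodes the inhibitory receptor gp49B and Lilr4b its partner gp49A, which lacks the ITIM tail. They are known from mast cells, myeloid cells, NK cells and activated T cells, and the human counterpart LILRB4 is studied as a checkpoint receptor.

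The Treg label was checked against its markers. Foxp3, the transcription factor that defines Tregs, was read at 393.8 to 621.8 CPM (counts scaled to library size by the TMM method) in the 7 libraries. Il2ra, which encodes CD25, was at 327.1 to 684.0 CPM, and Cd4 at 434.1 to 633.0 CPM. Other cells were in the libraries too, and haemoglobin transcripts took 1.24% to 13.1% of the gene counts. In bulk RNA of this kind, more cells that carry a transcript cannot be told apart from more RNA per cell.

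In GENCODE M21 on GRCm38, Lilr4b spans chr10:51480632-51486703 and Lilrb4a chr10:51490956-51496611, both on the plus strand, with 4252 bases between them. The coding sequence is 909 bases in Lilr4b and 1005 bases in Lilrb4a, without the stop codon. Over exons 1 to 7 the coding sequences align base for base, and 35 of 864 positions differ, so that 95.95% are identical. Exon 3, which lies in the part that codes for the immunoglobulin domains, holds 17 of the differences in 285 bases. It is shown because differing bases such as these let a read be given to one gene and not the other. The genes also differ in other exons and after exon 7. Capitals mark the positions where the genes differ, both are coding exons read 5′ to 3′ on the plus strand, and the exons lie at chr10:51481140-51481424 and chr10:51491434-51491718.
Lilr4b exon 3: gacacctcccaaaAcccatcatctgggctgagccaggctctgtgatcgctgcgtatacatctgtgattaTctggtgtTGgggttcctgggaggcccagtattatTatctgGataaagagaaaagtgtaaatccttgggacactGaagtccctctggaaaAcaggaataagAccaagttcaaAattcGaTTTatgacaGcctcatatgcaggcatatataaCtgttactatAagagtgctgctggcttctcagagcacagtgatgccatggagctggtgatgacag
Lilrb4a exon 3: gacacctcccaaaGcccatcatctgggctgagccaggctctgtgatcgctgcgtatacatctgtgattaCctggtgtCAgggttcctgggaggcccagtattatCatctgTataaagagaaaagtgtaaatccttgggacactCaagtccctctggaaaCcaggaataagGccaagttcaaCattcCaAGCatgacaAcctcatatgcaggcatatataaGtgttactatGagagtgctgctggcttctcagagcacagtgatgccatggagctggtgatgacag

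The genes part after exon 7, where Lilrb4a codes for its inhibitory tail. Here Lilr4b has 45 coding bases, in exon 8 at chr10:51485713-51485757. Lilrb4a has 141 coding bases from exons 8 and 9, joined here as in the transcript, between chr10:51495994 and chr10:51496241. Capitals mark the codons of the ITIM pattern (an isoleucine, valine, leucine or serine, any residue, a tyrosine, any pair of residues, then an isoleucine, valine or leucine). The pattern begins at codons 298 and 320 of Lilrb4a. A search of the Lilr4b tail gave no match, and the run of c is 7 bases long in Lilr4b and 5 in Lilrb4a, so that the shared bases after it are read in another frame. The pattern also matches once from codon 8 of both genes, where it begins in the coding part of exon 1 and runs into exon 2.
Lilr4b tail: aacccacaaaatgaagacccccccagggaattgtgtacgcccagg
Lilrb4a tail: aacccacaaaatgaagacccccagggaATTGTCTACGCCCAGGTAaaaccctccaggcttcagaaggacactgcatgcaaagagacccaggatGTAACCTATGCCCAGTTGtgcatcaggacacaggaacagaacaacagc

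**Figure D1:**
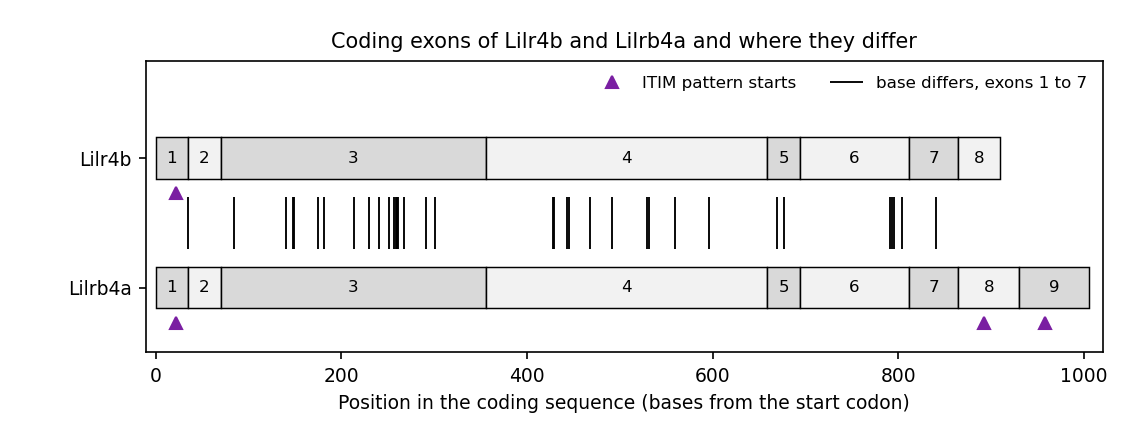
Coding exons of Lilr4b (above) and Lilrb4a (below), drawn to scale as boxes with their exon numbers, against the position in the coding sequence in bases from the start codon. Black lines mark the 35 positions in exons 1 to 7 where the genes differ and triangles mark where an ITIM pattern starts, and the longest stretch with no difference, positions 302 to 427, crosses the border of exons 3 and 4.

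The likeness limits how well reads can be told apart. The longest identical run in exons 1 to 7 is 126 bases. Of all 100-base windows of the main transcript, 10.5% in Lilr4b and 14.3% in Lilrb4a occur unchanged in the partner. For 50-base windows the shares were 22.9% and 27.8%. The identifier under which the files count Lilrb4a belongs in GENCODE M21 to Gm49339, a read-through locus at chr10:51480612-51496613 that joins the start of Lilr4b to the later exons of Lilrb4a. The identifier of Lilr4b in the files is not in M21, so the files rest on another annotation, and the gene models that were counted are not known. The sum of the pair does not depend on how the counted reads were split, though reads given to neither gene are missing from it.

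Both genes were low in young and high in aged cells. Values after ± are here and below the SD over the libraries of an age, with n = 3 for aged and n = 4 for young cells. Lilr4b had 1135, 263 and 700 counts in aged replicates 1, 2 and 3, and 72, 66, 49 and 52 counts in young replicates 1 to 4. On the CPM scale these were 99.2, 26.5 and 65.5 in aged cells, and 6.29, 4.63, 3.87 and 3.73 in young cells. The lowest aged library stood 4.21 times above the highest young one. The mean was 63.7 ± 36.4 CPM in aged and 4.63 ± 1.18 CPM in young cells, a ratio of 13.8. The fitted log2 fold change was 3.79 with a standard error of 0.416.

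Lilrb4a had 1294, 458 and 915 counts in the aged replicates, and 126, 124, 129 and 118 in the young ones. The CPM values were 113.1, 46.1 and 85.6 in aged cells, and 11.01, 8.69, 10.2 and 8.46 in young cells. As for Lilr4b, aged replicate 1 was highest and aged replicate 2 lowest, and the ages did not overlap. The mean was 81.6 ± 33.7 CPM in aged and 9.59 ± 1.22 CPM in young cells, a ratio of 8.51. The log2 fold change was 3.09 with a standard error of 0.276.

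The summed pair reached 212.2, 72.6 and 151.1 CPM in the aged replicates and 17.3, 13.3, 14.1 and 12.2 CPM in the young ones. The means were 145.3 ± 70.0 CPM and 14.2 ± 2.20 CPM, with a log2 fold change of 3.36 and a standard error of 0.323. These differences were the basis on which the pair was chosen. As background, 9.80% of the 13904 genes tested were called higher and 6.94% lower in aged cells by edgeR's quasi-likelihood test at an adjusted p under 0.05. The ages did not overlap, with aged cells higher, in 15.5% of all genes and, with aged cells lower, in 14.4%. By size of the fitted rise, Lilr4b stood at rank 29 and Lilrb4a at rank 68 of the 13904 genes. Among the 9526 genes whose log2 CPM averaged at least 3, the ranks were 4 and 14. Lilr4b reached that average through its aged libraries only, as its young libraries were at log2 CPM 1.9 to 2.65. The median log2 fold change over all genes was 0.02.

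**Figure D2:**
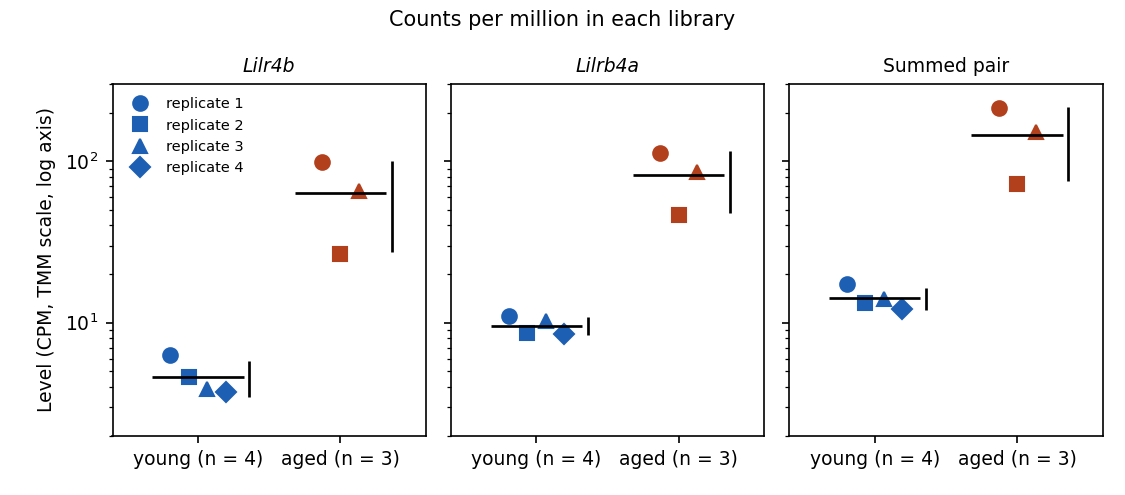
Level of Lilr4b, of Lilrb4a and of their sum in CPM on a log axis, for 4 young (blue) and 3 aged (red) libraries; each symbol is 1 library, its shape gives the replicate number, the horizontal line is the mean and the vertical line spans 1 SD on either side. The lowest aged library, replicate 2, lies about 4.2 times above the highest young library in all panels.

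In both genes the aged libraries covered a wider range than the young ones. Between the highest and the lowest aged library, Lilr4b varied 3.74-fold, Lilrb4a 2.45-fold and the sum 2.92-fold. In young cells these ranges were 1.69-fold, 1.302-fold and 1.42-fold. Among the 9526 better expressed genes the median range was 1.296-fold in aged and 1.24-fold in young cells (3 and 4 libraries). The aged range of Lilr4b was larger than that of 97.5% of those genes, and the aged range of Lilrb4a larger than that of 94.97%. In young cells the range of Lilr4b was larger than that of 90.2% of the genes and the range of Lilrb4a larger than that of 64.3%. Lilr4b reached the level of those genes through its aged libraries only. Its young range rests on 49 to 72 counts per library and holds more counting error than that of a gene with more counts. The ranges were not corrected for this. Aged replicate 1, highest in the pair, also held the most mitochondrial transcripts, 10.7% of gene counts against 5.08% and 5.54% in aged replicates 2 and 3 and 2.63% to 3.23% in young cells. Aged replicate 2, lowest in the pair, held the most haemoglobin, 13.1% against 1.27% and 7.60%. The part of either share in the spread of the pair was not tested. Leaving out 1 library at a time gave log2 fold changes from 3.31 to 4.16 for Lilr4b, 2.78 to 3.37 for Lilrb4a and 2.98 to 3.68 for the sum, lowest without aged replicate 1 and highest without aged replicate 2. With mitochondrial, immunoglobulin and haemoglobin genes left out, the sum rose by 3.36 on the log2 scale.

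Lilrb4a gave more counts than Lilr4b in all 7 libraries. Lilr4b made up 46.7% of the summed counts in aged replicate 1 (95% Wilson interval 44.8% to 48.7%), 36.5% in aged replicate 2 (33.04% to 40.1%) and 43.3% in aged replicate 3 (41.0% to 45.8%). In young cells it made up 36.4% (29.98% to 43.3%), 34.7% (28.3% to 41.8%), 27.5% (21.5% to 34.5%) and 30.6% (24.2% to 37.9%). The means were 42.2 ± 5.22% and 32.3 ± 4.01%. The aged shares lay above the young shares, but aged replicate 2 and young replicate 1 differed by less than their counting intervals, which cover counting error only. The order of the shares was that of the pair levels in aged cells and not in young cells, where replicate 3 had the lowest share and the next to highest level. Per kilobase of main transcript (1836 bases in Lilr4b and 1381 bases in Lilrb4a), the level of Lilrb4a was 1.52 to 2.32 times that of Lilr4b in aged and 2.33 to 3.50 times in young cells, on M21 lengths that may not be the lengths counted. How far reads shared by the genes move these shares was not tested.

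**Figure D3:**
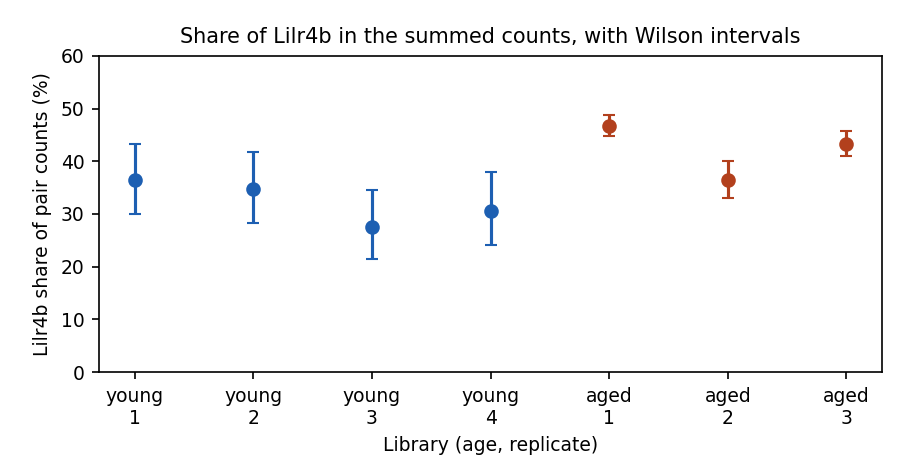
Share of Lilr4b in the summed counts of the pair, in percent, for each of the 4 young (blue) and 3 aged (red) libraries, with 95% Wilson intervals for counting error. The young shares run from 27.5% to 36.4% and the aged shares from 36.5% to 46.7%, with aged replicate 2 inside the intervals of 3 young libraries.

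The genes nearest to the pair along the chromosome gave almost no counts. Of the 4 other protein-coding genes within 500000 bases in GENCODE M21, the transcription factor genes Sim1 and Rfx6 had 0 and 1 counts over all 7 libraries, the receptor gene Gprc6a had 0 and Fam162b had 1. None could be tested for age, and a count of 0 allows up to 0.302 CPM in a library.

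The pattern of the summed pair over the 7 libraries was compared with that of 9524 other genes of that level, by the root mean square distance of log2 CPM values centred on each gene's mean. The members lay 0.35 from each other, and the median gene lay 1.67 from the sum. The closest was Abcb1a, an efflux pump of the P-glycoprotein kind, at 0.39, with 138.5, 86.8 and 107.4 CPM in the aged replicates and 17.3, 20.4, 13.4 and 12.8 CPM in the young ones. It kept the aged order of the pair, with replicate 1 highest and replicate 2 lowest. Fam160a1 followed at 0.45 (39.1 to 61.6 CPM in aged, 5.59 to 10.3 CPM in young cells) and Baiap3 at 0.47 (72.8 to 78.6 CPM and 7.95 to 9.79 CPM). Il1b, the cytokine interleukin-1 beta, lay at 0.53 with 68.9, 63.4 and 114.5 CPM in aged cells against 4.91 to 12.4 CPM in young cells. Il1r2, the decoy receptor for interleukin-1, lay at 0.54 with 82.7, 75.7 and 165.5 CPM against 6.08 to 7.95 CPM. In both interleukin-1 genes aged replicate 3 was highest, unlike in the pair. Bzrap1 (0.54), Ttn, which encodes the muscle protein titin (0.57), and the gene model Gm28437 (0.57) completed the 8 nearest. These distances are descriptions over 7 libraries that share the age contrast, and no shared control follows from them.

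The relatives of the pair were mostly low in these cells. Of 20 genes set down as LILR and PIR (paired immunoglobulin-like receptor) relatives, 9 passed the filter on low counts, 0 were called higher and 1 lower in aged cells by edgeR's quasi-likelihood test (1 higher and 1 lower at an unadjusted p under 0.05, and 0 and 0 by DESeq2), with a median log2 fold change of -0.37. With 9.80% of all genes called higher, a count of 0 of 9 is near the background. Pirb, the ITIM-bearing PIR-B receptor of B and myeloid cells, had 44.3, 30.2 and 38.2 CPM in aged cells and 29.5, 20.7, 26.1 and 30.7 CPM in young cells. Its values overlapped between the ages, and the log2 fold change was 0.49 with a standard error of 0.175 (edgeR adjusted p 0.0894). Lilra6 was the member called lower, at 1.31, 1.81 and 1.97 CPM in aged and 2.88 to 3.297 CPM in young cells (log2 fold change -0.85, standard error 0.237, edgeR adjusted p 0.0429). That call was lost in each of the 7 fits that left out a library. Lair1, an inhibitory collagen receptor, was at 9.17 ± 0.668 CPM in aged and 9.67 ± 2.25 CPM in young cells. Milr1, the mast cell receptor Allergin-1, was at 9.48 ± 1.34 CPM and 11.6 ± 1.59 CPM, and Ncr1, the NK receptor NKp46, at 3.64 ± 1.87 CPM and 5.69 ± 2.57 CPM. The activating PIR-A gene Pira2 and the gene models Gm14548, Gm15448 and Gm15922 had means of 0.958 to 1.82 CPM. Lilra5, Oscar, Tarm1 and Gp6 did not pass the filter (Tarm1 had 19, 13 and 6 counts in aged and 2, 1, 6 and 4 counts in young cells), Igsf1 had no count, and Pira1, Pira6, Pira7, Pira11, Pira12 and Pira13 were not matched by symbol. The PIR-A genes are near-copies of each other, so their counts are uncertain. The summed level of the list was 60.3 to 76.5 CPM in aged and 55.1 to 70.6 CPM in young cells, so the pair alone exceeded its relatives in every aged library (1.20 to 2.78 times their sum) and not in young cells (0.184 to 0.264 times), as counts not scaled by length.

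Genes for proteins reported to bind the receptors or their human counterpart were 5. Of these, 1 was called higher and 1 lower, where 9.80% of all genes were called higher and 6.94% lower. The integrin alpha v beta 3 is known as the ligand of gp49B. Itgb3, its beta chain, was lower, at 32.4 ± 3.70 CPM in aged against 58.2 ± 2.898 CPM in young cells, with a log2 fold change of -0.84 and a standard error of 0.105 (edgeR adjusted p 0.00193). Itgav, its alpha chain, was at 66.7 ± 24.6 CPM in aged and 42.5 ± 3.97 CPM in young cells, with a log2 fold change of 0.65 that missed the threshold (edgeR adjusted p 0.0861). It was 0.90 and called without aged replicate 2 (edgeR adjusted p 0.00795), 0.37 and not called without aged replicate 3 (edgeR adjusted p 0.290), and called by DESeq2 (adjusted p 0.0443). Alcam, the adhesion molecule CD166, rose, with 42.1, 28.2 and 40.7 CPM in aged cells and 17.1 to 22.1 CPM in young cells (log2 fold change 0.94, standard error 0.165, edgeR adjusted p 0.00814). Its aged libraries kept the order of the pair, as did those of Pirb, which was not called. How many of all genes share that order was not counted. Fn1 (fibronectin) and Apoe (apolipoprotein E) were not called, at 10.01 ± 7.57 and 138.9 ± 41.3 CPM in aged cells and 15.7 ± 10.1 and 134.9 ± 21.5 CPM in young cells. The Apoe log2 fold change of 0.04 turned to -0.05 with library size alone and to values down to -0.14 when single libraries were left out.

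Of the 10 enzymes that act at ITIMs, 1 was called higher and 3 lower, where 9.80% of all genes were called higher and 6.94% lower. Ptpn6, the phosphatase that ITIM-bearing receptors recruit, was lower in aged cells, at 172.2, 230.3 and 220.3 CPM against 270.1 to 358.9 CPM (log2 fold change -0.55, standard error 0.146, edgeR adjusted p 0.0373). Csk, a kinase that holds Src family kinases inactive, was lower too, at 288.3 ± 18.5 CPM against 432.6 ± 24.9 CPM, with a log2 fold change of -0.59 (edgeR adjusted p 0.00836). Src, a kinase of that family, was higher, with a log2 fold change of 0.98 (edgeR adjusted p 0.0136), at 20.2 ± 2.64 CPM in aged and 10.2 ± 2.44 CPM in young cells. The call of Ptpn6 held in 1 of the 7 fits that left out a library, and those of Csk and Src in 7 of 7. The phosphatase genes Ptpn11 and Inpp5d and the kinase genes Lyn, Fyn, Lck and Fgr were not called, with log2 fold changes from -0.24 to 0.17.

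The adaptors and kinases of activating receptors did not pass the test. Of 10 genes, 0 were called in either direction by edgeR, while 2 were higher and 2 lower at an unadjusted p under 0.05, DESeq2 called 1 higher and 2 lower, and limma voom called 1 higher. Without aged replicate 1 edgeR called 2 higher, and without young replicate 2 it called 1 higher and 1 lower. With all libraries it called 9.80% of all genes higher and 6.94% lower. Fcer1g, the gamma chain that pairs with activating immunoglobulin receptors, was at 27.5 ± 3.95 CPM in aged and 23.8 ± 2.79 CPM in young cells. Tyrobp, the adaptor DAP12, was at 42.5 ± 4.29 and 46.4 ± 10.1 CPM. Hcst, Syk, Zap70, Btk, Plcg1, Plcg2, Card9 and Vav1 made up the rest, with log2 fold changes from -0.60 for Plcg2 to 0.36 for Hcst.

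Other receptors of the same inhibitory or activating kind were compared next. Of 22 other inhibitory receptors, 3 were called higher and 2 lower (5 and 3 at an unadjusted p under 0.05), near the 9.80% and 6.94% of all genes, with a median log2 fold change of 0.05. Among those with the highest mean level, Cd5 was lower (log2 fold change -0.42, edgeR adjusted p 0.0422) and Btla, Ly9 and Cd22 were not called. The call of Cd5 held in 1 of the 7 fits that left out a library. The other called genes, named here after their values were seen, were Tigit (log2 fold change 1.58, edgeR adjusted p 0.00162), the myeloid receptor gene Cd300lf (1.10, edgeR adjusted p 0.00396), the Fc receptor gene Fcgr2b (0.63, edgeR adjusted p 0.0473) and Pecam1 (-0.63, edgeR adjusted p 0.00519). The call of Fcgr2b held in 1 of those 7 fits. Of 16 activating paired receptors that passed the filter, 3 were called higher and 1 lower (8 and 1 at an unadjusted p under 0.05), with a median log2 fold change of 0.47. Those at the highest level, Fcgr3, Clec7a, Clec4n and Fcgr4, were not called. The called genes, again named after their values were seen, were Trem1 (log2 fold change 2.68, edgeR adjusted p 0.00507), Clec4d (2.69, edgeR adjusted p 0.00251) and Clec4e (2.23, edgeR adjusted p 0.00338), all of neutrophils and monocytes, and Siglech (-1.64, edgeR adjusted p 0.0140), a marker of plasmacytoid dendritic cells. Clec4d had 6.90, 5.44 and 7.86 CPM in aged cells and 0.420 to 1.36 CPM in young cells. The summed activating list was 74.6 to 107.4 CPM in aged cells, in the order of the pair, and 50.7 to 70.0 CPM in young cells.

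**Figure D4:**
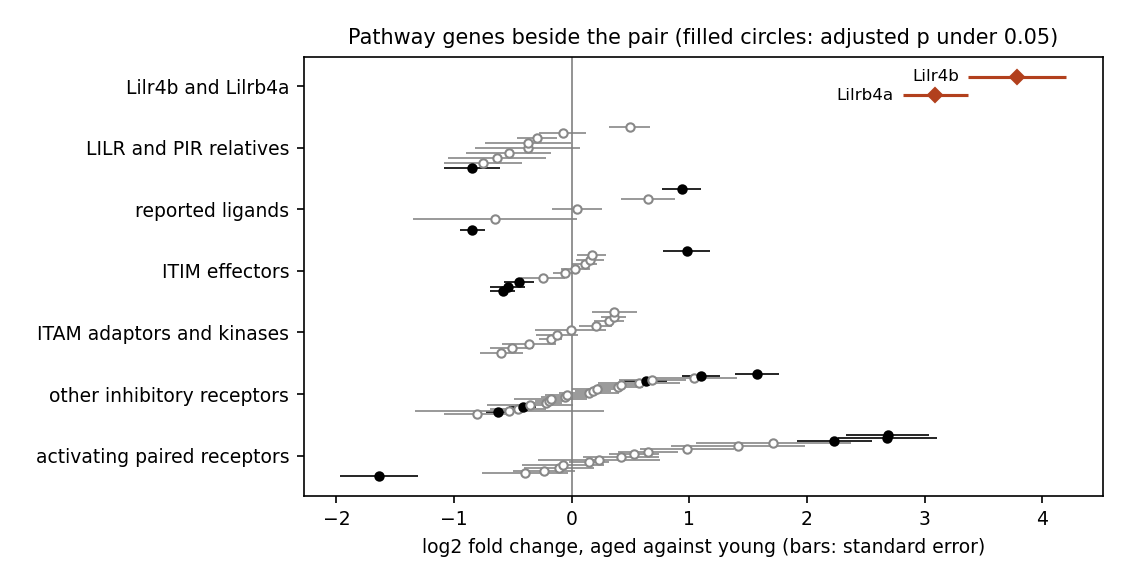
Log2 fold change of aged against young cells with its standard error, for Lilr4b and Lilrb4a (red diamonds) and for the tested genes of 6 lists (circles; filled where edgeR's adjusted p was under 0.05). Lilr4b (3.79) and Lilrb4a (3.09) lie beyond all listed genes, of which Clec4d (2.69) and Trem1 (2.68) come nearest.

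Markers of the cells known to carry the pair were read in the same libraries. Of 14 neutrophil markers, 5 were called higher, 0 lower and 9 were not called by edgeR (12 higher and 0 lower at an unadjusted p under 0.05, and 6 higher by DESeq2), where 9.80% of all genes were called higher. The median log2 fold change was 1.96. Mpo and Elane, enzymes of early neutrophil granules named after their values were seen, had log2 fold changes of -0.08 and -0.14 and were not called, with values of either sign when single libraries were left out. S100a8 (log2 fold change 2.25, edgeR adjusted p 0.0468) and S100a9 (2.43, edgeR adjusted p 0.0278), the calprotectin genes, had the highest levels, and Ngp and Ltf, next in level, were not called. The call of S100a8 held in 2 of the 7 fits that left out a library, its ages overlapped, and its log2 fold change was 1.29 without aged replicate 1, while the call of S100a9 held in 4 of 7 and its log2 fold change was 1.58 without aged replicate 1. Retnlg (2.22), Cxcr2 (1.92) and Csf3r (1.79), named after their values were seen, made up the calls, and that of Retnlg held in 5 of the 7 fits. The count of 5 was 3 without aged replicate 1, 2 without young replicate 1 or young replicate 4, 9 without aged replicate 3 and 10 without the filter on low counts. The summed list was 5875, 2109 and 784.3 CPM in aged replicates 1, 2 and 3 and 344.1 to 1091 CPM in young cells. In aged replicate 3 the sum lay within the young range, but the called markers Csf3r (53.1 CPM), Cxcr2 (11.6 CPM), Retnlg (17.4 CPM) and S100a9 (324.1 CPM, against 321.0 CPM in young replicate 3) were above every young library there. Mmp9, not called and named after its values were seen, was also above every young library there (19.3 CPM against at most 17.1 CPM). S100a8 and 6 of the other markers lay within the young range in that library, and Mpo and Elane below it. The part of neutrophil transcripts in the level of the pair was not tested.

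Monocyte and macrophage markers did not move one way, with 2 of 14 called higher and 2 lower. Here and for the lists below, 9.80% of all genes were called higher and 6.94% lower. Csf1r, the receptor for macrophage colony-stimulating factor, was lower in aged cells, at 42.7 ± 10.8 CPM against 92.7 ± 3.296 CPM, with a log2 fold change of -1.12 (edgeR adjusted p 0.00310). Adgre1 (F4/80) was also lower (-0.70), and Cd14 (1.15) and Cebpb (1.42) were higher, these being named after their values were seen. The call of Cebpb held in 4 of the 7 fits that left out a library. Lyz2, Cybb and Ly6c2, with Csf1r the highest in level, were not called. The summed list was 921.5, 475.0 and 657.9 CPM in aged cells, in the order of the pair as in the Treg, CD8 T cell, NK and LILR and PIR relative lists, and 552.1 to 671.7 CPM in young cells, so that the ages overlapped. The pair equalled 0.153 to 0.230 of this sum in aged and 0.0206 to 0.0313 in young cells. Red pulp macrophage markers (1 of 10 called higher, 3 lower) and dendritic cell markers (2 of 12 higher, 3 lower) overlapped between the ages in summed level, at 346.6 to 565.2 against 438.2 to 525.3 CPM and at 1504 to 3055 against 1799 to 2518 CPM. Both ran in the aged order 3, 2, 1.

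For the counts that follow, 9.80% of all genes were called higher and 6.94% lower. Mast cell and basophil markers were low. Of 10, 5 passed the filter, Kit (log2 fold change -1.32) and Cpa3 were called lower and Hdc (2.14), which encodes histidine decarboxylase, higher. Their sum was 30.8 to 51.0 CPM in aged and 38.9 to 79.8 CPM in young cells. Prss34, also among the 4 highest in level, was not called, and the mast cell genes Fcer1a, Ms4a2 and Tpsb2, named after their values were seen, did not pass the filter. Of 7 NK markers 0 were called higher and 2 lower (1 lower without aged replicate 3, young replicate 3 or young replicate 4, and 3 without young replicate 2). Of 5 eosinophil and 8 B cell markers 0 were called by edgeR (2 and 3 were lower at an unadjusted p under 0.05). DESeq2 called 2 lower in each, and edgeR without aged replicate 3 called 1 eosinophil and 2 B cell markers lower, with 1 eosinophil marker also without young replicate 1 or young replicate 3. Of the remaining lists, conventional T cell markers had 1 of 12 called higher and 4 lower, CD8 T cell markers 1 of 4 higher, plasmacytoid dendritic cell markers 2 of 5 lower, plasma cell markers 1 of 7 higher, platelet markers 2 of 6 higher and 1 lower, and erythroid markers 0 of 8 (0 also at an unadjusted p under 0.05). The plasma cell count of 1 was 5 without young replicate 2 and 0 without any single other library but aged replicate 2, and the platelet count of 2 was 0 without aged replicate 3, young replicate 1 or young replicate 3 and 1 without aged replicate 2 or young replicate 2. Conventional T cell markers lower were 2 without aged replicate 2, aged replicate 3 or young replicate 1. Those higher were 0 without aged replicate 2, aged replicate 3, young replicate 1, young replicate 3 or young replicate 4. Their part in the level of the pair was not tested.

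Markers of the T cells themselves were read last. Of 12 Treg markers, 0 were called higher and 2 lower (3 higher and 3 lower at an unadjusted p under 0.05, and 2 higher by edgeR without young replicate 2), and Foxp3 was at 515.6 ± 93.3 CPM in aged and 446.3 ± 61.8 CPM in young cells. Il2rb, Ctla4, Izumo1r and Il2ra, the highest in level, were not called. Of 20 markers of activated or effector Tregs, 11 were called higher and 0 lower by edgeR (16 and 0 at an unadjusted p under 0.05, and 12 and 0 by DESeq2), again against 9.80% of all genes called higher, with a median log2 fold change of 1.03. Among the 4 highest in level, Icos, Tnfrsf9 and Itgae (log2 fold change 1.89, edgeR adjusted p 0.000898) were called higher and Tnfrsf4 was not. Lag3, named after its value was seen, rose to 124.2, 98.2 and 224.1 CPM from 21.1 to 32.1 CPM (log2 fold change 2.56, edgeR adjusted p 0.00125). The summed list was 2053, 1865 and 2462 CPM in aged and 888.3 to 1433 CPM in young cells, with no overlap, and aged replicate 2 was lowest here as in the pair. The count of 11 ranged from 6 to 14 when single libraries were left out, with 6 without young replicate 1 or young replicate 4 and 7 without young replicate 3. Whether Tregs or other cells carried the pair was not tested.

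**Figure D5:**
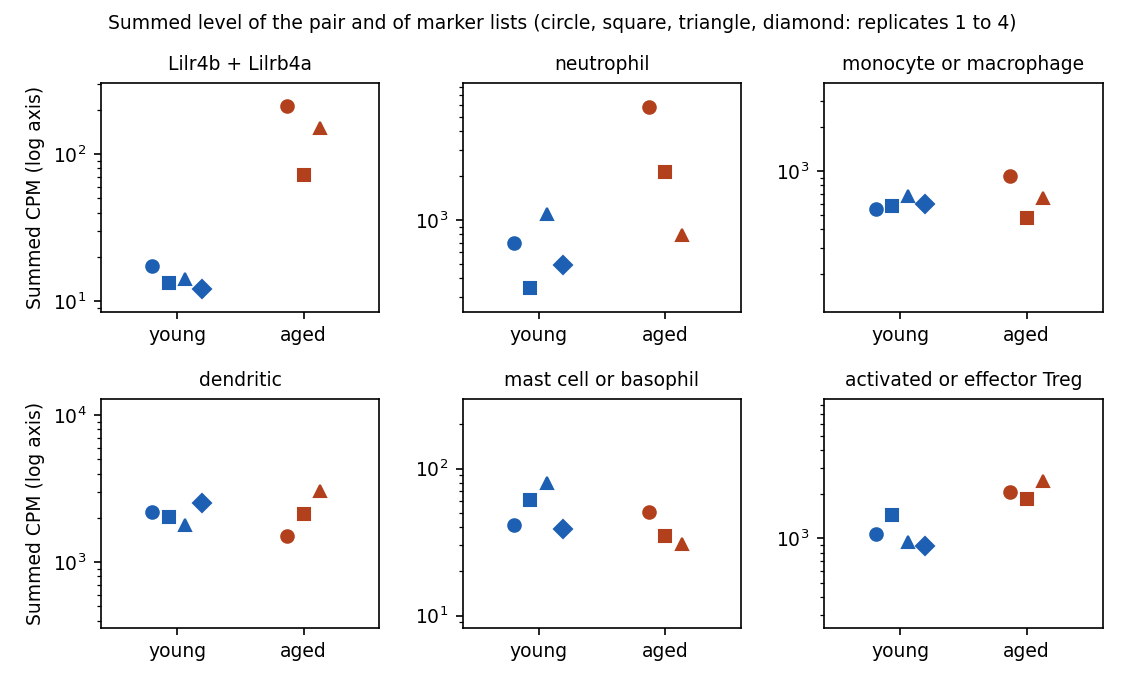
Summed CPM on a log axis of the pair and of 5 marker lists in each library (young blue, aged red; circle, square, triangle and diamond are replicates 1 to 4; every panel spans the same fold). The pair and the activated or effector Treg list separate the ages, while the neutrophil, monocyte or macrophage, dendritic and mast cell or basophil lists overlap between them.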

How the data were processed

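RNA-sequencing libraries of CD4+CD25+ splenocytes from 3 aged and 4 young mice were analysed. The authors deposited raw read counts per Ensembl gene for each library, in the layout of HTSeq-count, and the submitters' processing notes name the build mm10. The aligner and annotation are not given in the sources used here. The authors also deposited 1 table of the series, whose signal values equal each count divided by 1 factor per library (checked). Its gene symbols were used, and its log2 fold changes, standard errors, test statistics, p-values and adjusted p-values under DESeq2 column names were not. Reads not given to 1 gene (13.1% to 20.9% per library) were left out of library sizes.

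Members, lists and rules were chosen with earlier results of these data known. Counts were fitted with edgeR 4.0.16 in R 4.3.3 (TMM, filterByExpr, quasi-likelihood test, no covariate) and adjusted over 13904 genes by the Benjamini-Hochberg method. A gene with an adjusted p under 0.05 was called. The standard error of a log2 fold change is its absolute value divided by the square root of the F statistic of that test. For the members it serves as a description only. The script was tested on simulated data. Pair counts were summed before the fit. A count of 3 equals 0.21 to 0.302 CPM, and limits and intervals cover counting error only. Replicates of an age differed beyond sampling noise (chi-square per degree of freedom 8.88 to 185), so none was taken for a copy. p-values weigh the difference between the ages against the spread between these libraries.

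Named were the members, the genes of the first 4 pathway lists (of 6; 1 is counted but not reported here), the 4 highest in mean CPM of the other lists described, the 8 genes nearest to the pair and neighbouring genes. Other names are marked as chosen after their values were seen. The study's own methods name limma, run here as an alternative. Sequences and coordinates are from the mouse tables of GENCODE M21 and GRCm38, matched by symbol.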

Additional observations from a re-analysis of the deposited data

Results flagged for a closer look

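Among 4 young libraries, 1 stood apart from the others by Dixon's criterion in 5 of 65 sets of values examined, where chance gives about 1 in 20. The level of Lilr4b, of Lilrb4a, of their sum and of the Lilr4b share gave no such library. Itgav, the alpha chain of the reported integrin ligand, was at 36.6 CPM in young replicate 4 and at 44.1 to 45.0 CPM in the other young libraries. Fn1 was at 30.8 CPM in young replicate 3 against 9.04 to 12.04 CPM. Cd300lf was at 11.1 CPM in young replicate 3 against 9.39 to 9.60 CPM, and Tigit at 74.8 CPM in young replicate 2 against 44.8 to 49.5 CPM, both still below every aged library. The summed plasma cell markers reached 15530 CPM in young replicate 2 against 3770 to 4758 CPM in the other young libraries, and the pair in that library (13.3 CPM) lay within the range of the other young libraries.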

How the results depend on the processing

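The log2 fold changes of Lilr4b, Lilrb4a and the sum kept their direction in the 15 alternatives and moved by less than the spread between replicates, from 3.31 to 4.16, 2.78 to 3.37 and 2.98 to 3.68. The extremes came from leaving out aged replicate 1 (lowest) and aged replicate 2 (highest), and the mean Lilr4b share ranged from 39.9% to 45.0% in aged and from 31.0% to 33.9% in young cells. The replicate numbers did not pair the ages, since deviations of same-numbered libraries correlated at -0.11, -0.32 and -0.15. With the replicate block the log2 fold changes were 3.53, 2.95 and 3.17, while 202 genes were called higher and 90 lower, with 4 and 1 genes of the pathway lists and 8 and 7 marker genes. Leaving out 1 library at a time gave 783 to 1603 genes called higher and 448 to 1455 lower, against 1362 and 965. Pathway genes then numbered 7 to 10 higher and 4 to 6 lower (8 and 8 with all libraries), and marker genes 14 to 33 higher and 16 to 21 lower (26 and 20). The count of genes higher fell to 814 without aged replicate 3, 847 without young replicate 1, 784 without young replicate 3 and 783 without young replicate 4, and the count lower to 448, 468, 486 and 454. The count lower rose to 1455 without aged replicate 1. The pathway genes lower were 5 without aged replicate 2 or aged replicate 3 and 4 without young replicate 1, 3 or 4. The marker genes higher were 14 without young replicate 1 and 17 without young replicate 4. DESeq2 called 13 pathway genes higher. Library size alone gave 960 higher and 875 lower. The causes were not tested. The log2 fold change of Apoe turned from 0.04 to -0.051 with library size alone and ranged from -0.138 to 0.262 when single libraries were left out, being negative without aged replicate 2, aged replicate 3 (-0.03), young replicate 1 (-0.007) or young replicate 3 (-0.019). The fold changes of 39 genes of the lists, Apoe among them and not all of them given above, were followed. Of 582 results under an alternative, 501 kept their side of the threshold and 64 lost the call (17 of them with the block and 38 when a library was left out). A further 6 gained the call and 11, of Apoe, Mpo and Elane, changed sign. When single libraries were left out, the log2 fold change of Mpo ranged from -0.996 to 0.434 and that of Elane from -0.929 to 0.402, both being positive without aged replicate 3 (0.434 and 0.402), young replicate 2 (0.077 and 0.064) or young replicate 3 (0.333 and 0.284). In the smaller lists, leaving out a library gave 1 to 2 ITIM enzymes lower (3 with all libraries), 1 to 3 other inhibitory receptors lower (2), 3 to 5 activating receptors higher (3, with 5 without aged replicate 2), 1 to 3 monocyte or macrophage markers higher (2), 1 to 3 dendritic cell markers lower (3) and 1 to 3 mast cell or basophil markers lower (2). Red pulp macrophage markers higher were 2 without aged replicate 1 (1 with all libraries). Dendritic cell markers higher were 1 without aged replicate 3 (2 with all libraries). Lilr4b had 49 to 72 counts per library in young cells.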
